A study of Homo sapiens with 6 samples.

Results

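The genes of 10 alternative splicing regulators were described: TRA2A, TRA2B, MBNL1, MBNL2, QKI, RBFOX2, CELF1, RBM5, RBM10 and RBM39. They were chosen by name from the exon annotation deposited for the human glioma cell line U-87 MG, and all 10 were present among its 13721 gene names. Poly(A)-selected RNA had been sequenced from 3 libraries of cells given EPZ015666, which inhibits PRMT5 (an enzyme that methylates arginine in proteins such as splicing factors), at 10 uM for 72 h. The other group was 3 libraries given the vehicle DMSO, at 10 ul per 10 ml of medium for 72 h. The annotation is 1 list of exon positions (hg19) made for both groups together, with 0 columns of values per library. Levels, sequencing depth and replicate error are therefore unknown for these genes, the EPZ015666 and DMSO groups could not be compared, and nothing below is an effect of the inhibitor. What can be read is which exons, starts and ends were listed for each gene.

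The genes encode RNA-binding proteins that decide which exons of other transcripts are kept. TRA2A and TRA2B bind exonic enhancers and promote inclusion, MBNL1 and MBNL2 bind by zinc fingers, QKI binds by a KH domain, and RBFOX2, CELF1, RBM5, RBM10 and RBM39 carry RNA recognition motifs. Many such regulators act on their own transcripts. Inclusion or skipping of an exon can bring in a premature stop codon and lead to nonsense-mediated decay, and a cassette exon (an exon that is either kept or skipped whole) or a different last exon can add or remove a signal that sets where the protein resides. TRA2B binding to its own early exon is a textbook case of the first kind, and the QKI last exons are one of the second.

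The 10 genes had 602 exon rows, which ran 5′ to 3′ as 39 isoforms, 31 of them distinct, with 153 introns. The number of introns ranged between 9, in TRA2A, TRA2B, MBNL2 and QKI, and 25, in RBM39. RBM39 alone had 249 of the rows and 13 of the isoforms. At the other end MBNL1 was listed once, in 12 rows. The longest introns lay in RBFOX2 (98635 bases), MBNL1 (79710 bases), QKI (56085 bases) and MBNL2 (53100 bases).

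Among the markers looked for, 5 of 8 mesenchymal and glial genes were listed, while GFAP, SOX2 and AQP4 were not. All 3 neuron markers and 1 of 2 myeloid markers were listed, and 0 of 3 muscle and 0 of 2 endothelial markers. Being listed gives no level.

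No cassette exon was listed in any of the 10 genes, under any of the definitions tried. Each gene had 1 first exon, and no pair of internal exons shared an edge and differed at the other. Their isoforms differed only in the final exon. This held for the annotation as a whole: in 4807 of 4807 genes with at least 2 distinct isoforms, every isoform followed the same chain of exons up to its own final exon. Of 12462 genes with at least 1 intron, 0% listed a cassette exon and 0.281% were counted with 2 or more first exons. Since spliced isoforms of a gene share their first exon, that 0.281% comes from isoforms of a single exon. The end of that exon was counted as the end of a first exon, so these are not alternative spliced starts. The absence of cassettes and alternative starts in the regulators is thus the form of the file and not a property of these genes. Below, the chain of a gene is its isoform with most introns, and exons are numbered along it from the 5′ end.

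**Figure D1:**
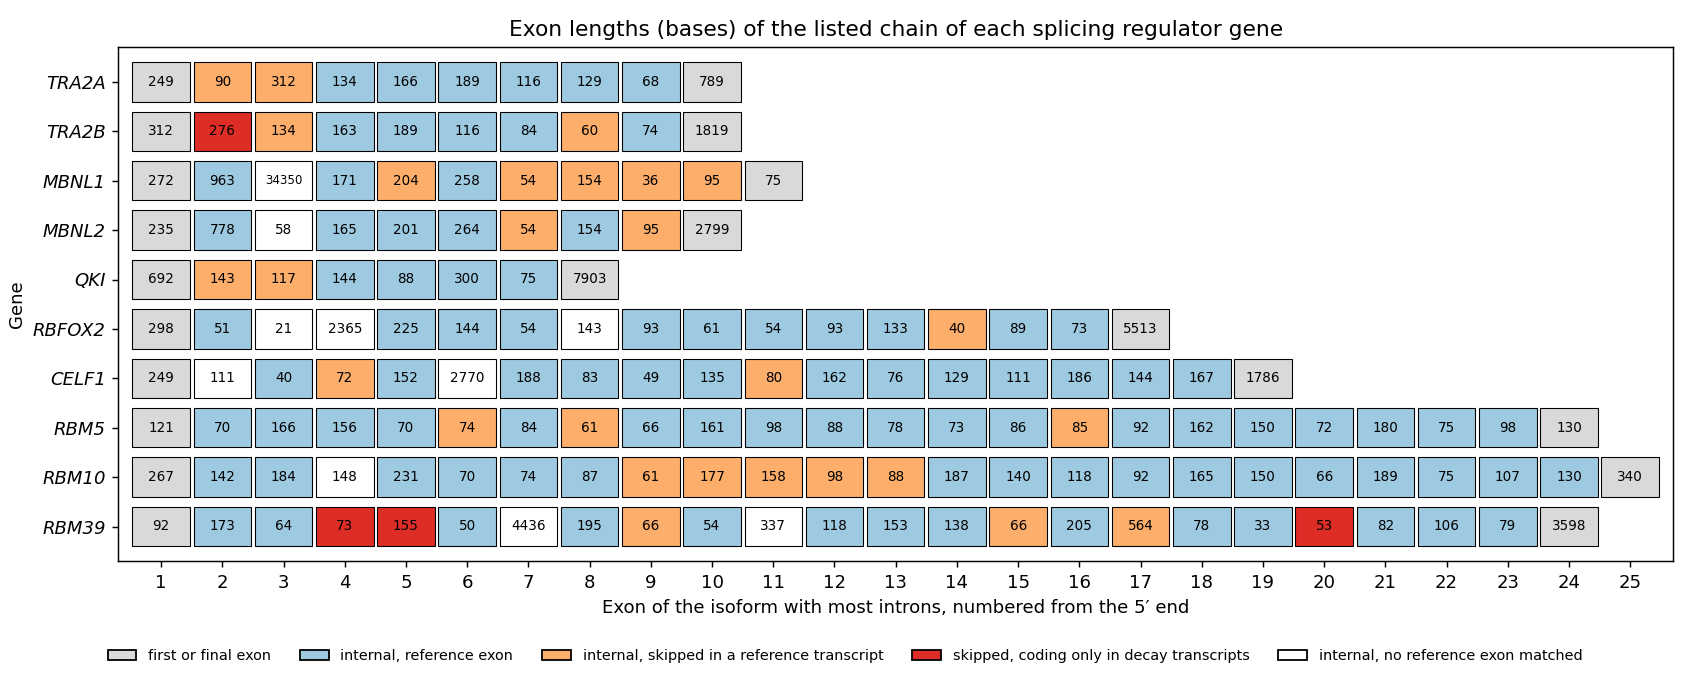
Exon lengths in bases (numbers in the boxes) along the listed chain of the 10 genes (rows), by exon number from the 5′ end (horizontal axis; boxes are not to scale). Of 138 internal exons 31 are orange or red, meaning that a GENCODE v29 transcript skips them, and these include a 54-base exon in both MBNL1 and MBNL2 and the 276-base exon 2 of TRA2B.

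To see which exons of the chains are known as alternative, the chains were set beside the GENCODE v29 transcripts of the same genes by exon and intron lengths. Of 148 chain introns 131 matched a reference intron, and of 138 internal chain exons 127 matched a reference exon. In the other direction, 121 of 136 internal exons of protein-coding transcripts in the basic set, the subset that GENCODE marks as representative, were found. Of the internal chain exons, 31 (22.5%) were skipped in at least 1 reference transcript, and every one of the 10 genes had at least 1. A further 4 matched exons, in RBFOX2, CELF1 and RBM10, were jumped but had an unmatched intron beside them and were left out. Where the reference had to join the 2 neighbouring exons, there were 23 exons in 9 genes, and RBM10 had 0. No share over all genes was computed under that narrower rule. Under the first rule, by which all 10 regulators had a skipped exon, 57.9% of the 10959 genes compared had at least 1. Over all matched genes 16137 of 117984 internal chain exons (13.7%) were skipped. When the skipping transcript had to belong to the basic set, the regulators had 18 such exons in 7 of 10 genes, against 39.9% of all genes. An exon whose length is a multiple of 3 can be skipped by itself without shifting the reading frame. The length was a multiple of 3 for 14 of the 31 skipped exons (45.2%, 95% Wilson interval 29.2 to 62.2) and for 42.8% of skipped exons over all genes (42.1 to 43.6). Among fully coding skipped exons, to which the reading frame applies, it was so for 9 of 23 in the regulators (39.1%, 22.2 to 59.2) and for 45.4% over all genes (44.5 to 46.2). Each exon was counted alone. For exons jumped only together, as RBM10 exons 9 to 13 by 1 junction, the frame depends on their summed length. Exons of a gene are not independent replicates, so the intervals do not test whether the sets differ. These counts describe the reference gene models, not splicing in these libraries.

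TRA2A (chromosome 7, 23544400 to 23571656, minus strand) was listed with 10 exons and 1 final exon of 789 bases. Its skipped exons are exon 2 of 90 bases and exon 3 of 312 bases, and neither carries coding sequence in a protein-coding or decay transcript of the reference. Its relative TRA2B (chromosome 3, 185633695 to 185655924, minus strand) had 5 isoforms. Exon 2 of TRA2B, 276 bases long, is coding at this full length in the reference only in transcripts annotated as subject to nonsense-mediated decay, and other reference transcripts join exon 1 to exon 3 or 4 over it. Exon 3 of 134 bases and exon 8 of 60 bases were the other skipped exons. The start of exon 2 as read in the decay transcript of GENCODE v29 is shown because it carries a stop codon, given in capitals, after 78 coding bases (hg19 position of the whole exon in the file chr3:185649365-185649640, minus strand).
TRA2B exon 2, coding part and stop: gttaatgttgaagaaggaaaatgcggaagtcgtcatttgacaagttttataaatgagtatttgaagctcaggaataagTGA

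The listed isoforms of TRA2B end in 2 places. An isoform of 2 exons stops 98 bases into exon 2, at 185649543, so it ends past the stop codon shown above. The reference has a basic protein-coding transcript of 2 exons that ends at the same acceptor, with a final exon of 99 bases of which 78 are coding. That short end is therefore annotated as protein-coding, while the full exon is not. The other 4 isoforms run through 10 exons to a final exon of 397 bases (listed 2 times), 981 bases or 1819 bases. Those lengths share an acceptor and differ by up to 1422 bases at the 3′ end, and the reference places only 8 coding bases in this final exon. The stretch in which they differ thus lies behind the reference stop codon. All 4 of these isoforms also contain exon 2, and in the frame shown above their reading would end at its stop.

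Exons that at their full length are coding only in decay transcripts and are skipped in others were present in 4.87% of genes. They occurred in 2 of the 10 regulators, TRA2B and RBM39. RBM39 held 3 of the 4, exon 4 of 73 bases, exon 5 of 155 bases and exon 20 of 53 bases.

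MBNL1 (chromosome 3, 152016772 to 152177134, plus strand) and MBNL2 (chromosome 13, 97874551 to 98046374, plus strand) each had a single distinct isoform. The MBNL1 chain held 5 exons that the reference skips, exon 5 (204 bases), exon 7 (54 bases), exon 8 (154 bases), exon 9 (36 bases) and exon 10 (95 bases). MBNL2 held 2, exon 7 (54 bases) and exon 9 (95 bases). The 54-base exon is known for its part in keeping MBNL proteins in the nucleus, and the 95-base exon is not a multiple of 3, so that its skipping shifts the frame of what follows. In MBNL2 the reference final exon at this acceptor carries either 12 or 125 coding bases. The 54-base exons are shown because they are skipped in the reference of both genes, as are the 95-base exons (MBNL1 at chr3:152164493-152164546, MBNL2 at chr13:98009050-98009103, both plus strand). Capitals mark the bases that differ.
MBNL1 54-base exon: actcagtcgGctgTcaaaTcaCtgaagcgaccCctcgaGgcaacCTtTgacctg
MBNL2 54-base exon: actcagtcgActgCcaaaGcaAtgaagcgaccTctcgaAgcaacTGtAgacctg

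Of the 54 bases 45 (83.3%) were identical. The 95-base exons (MBNL1 at chr3:152174056-152174150, MBNL2 at chr13:98018713-98018807) were identical at 81 of 95 bases (85.3%).
MBNL1 95-base exon: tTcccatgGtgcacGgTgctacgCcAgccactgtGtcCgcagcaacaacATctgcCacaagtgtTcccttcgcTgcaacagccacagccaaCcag
MBNL2 95-base exon: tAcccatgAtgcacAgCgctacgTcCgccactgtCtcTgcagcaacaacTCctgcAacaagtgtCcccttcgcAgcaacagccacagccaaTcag

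The MBNL1 chain also contains the 36-base exon 9, which has the length of an internal exon of the paralog MBNL3. The 36-base reference exon of MBNL2 was not found on its chain. Exon 3 of MBNL1 was 34350 bases long and matched no reference exon. Counted from its 3′ edge, which matched, it covers 2 reference exons and 0 whole reference introns. The MBNL1 list stops at a 75-base exon 11, at 152177134, which has the length of an internal reference exon. Other protein-coding reference transcripts end at the same acceptor, with final exons of 32 or 57 bases, and exons further on were not analysed here. MBNL2 ends with a final exon of 2799 bases, equal to the reference.

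QKI (chromosome 6, 163835676 to 163999628, plus strand) was the clearest case of alternative last exons with a known consequence. It had 4 listed isoforms, and each had a final exon of its own. They share exons 1 to 6, the last of them 300 bases long. Final exon 1 is 5479 bases long and begins at 163985699. Final exon 2 is 4200 bases long and begins 1279 bases further on, at 163986978. Final exon 3 is 3425 bases long and begins another 775 bases on, at 163987753, the acceptor of the 75-base exon 7, and no final exon of the reference was matched there. These 3 end together at 163991177. Final exon 4 is 7903 bases long and lies behind exon 7, at 163991726 to 163999628. Its acceptor is 3973 bases from that of final exon 3.

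**Figure D2:**
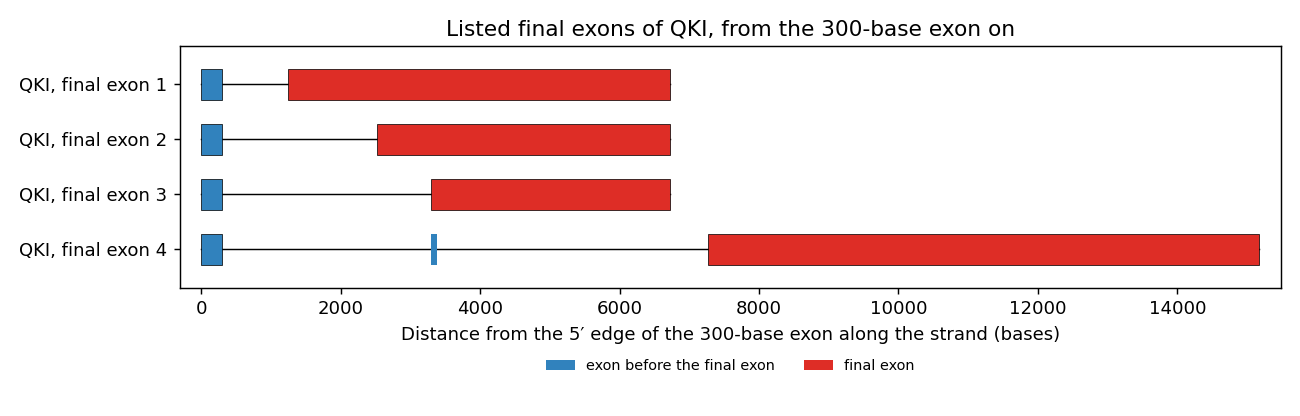
Final exons (red) of the 4 listed QKI isoforms and the exons before them (blue), by distance in bases from the 5′ edge of the 300-base exon along the strand; lines are introns. Final exons 1, 2 and 3 begin at different acceptors and end together, and final exon 4 of 7903 bases lies beyond them, behind the 75-base exon.

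Read on from the 300-base exon in the reference, final exon 1 adds 14 codons to a protein of 325, final exon 2 adds 8 codons to a protein of 319, and exon 7 with final exon 4 adds 30 codons to a protein of 341. In each count the codon split across the junction is included. These are the sizes of the proteins known as QKI-7, QKI-6 and QKI-5. The tail of QKI-5 carries a nuclear localisation signal that the other tails lack, and QKI-6 and QKI-7 are found more in the cytoplasm. The tails are shown because they are the whole difference between the proteins, with the stop codon in capitals. The first begins at chr6:163985699-163991177, the second at chr6:163986978-163991177, and the last runs from exon 7 at chr6:163987753-163987827 into chr6:163991726-163999628, all on the plus strand.
QKI tail of final exon 1: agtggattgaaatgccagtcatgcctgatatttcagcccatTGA
QKI tail of final exon 2: gtatggctttcccaacgaaaggcTAA
QKI tail of exon 7 and final exon 4: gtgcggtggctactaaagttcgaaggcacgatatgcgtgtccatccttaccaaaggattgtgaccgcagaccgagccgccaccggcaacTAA

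The ends of all these 3 proteins were thus listed for these cells, and their relative use is not given. The reference has a further coding end, a final exon of 6726 bases with 323 coding bases at the acceptor of exon 6, and no listed isoform ends at that acceptor. Of all genes 22.5% had 2 or more final exons and 7.5% had 3 or more. Among the regulators 5 of 10 had 2 or more (TRA2B, QKI, CELF1, RBM5 and RBM39), or 3 of 10 (QKI, CELF1 and RBM39) when final exons at the acceptor of an internal exon are left out. The shares over all genes count every final exon, and no share was computed under that narrower rule. With all final exons counted, 3 regulators had 3 or more, and RBM39 had 5, a number that 1.04% of genes reached. Genes with as many introns as the regulators, 9 to 25, had 2 or more final exons in 29.6% of cases. In the early exons of QKI the reference skips exon 2 (143 bases) and exon 3 (117 bases), in both cases only outside the basic set.

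**Figure D3:**
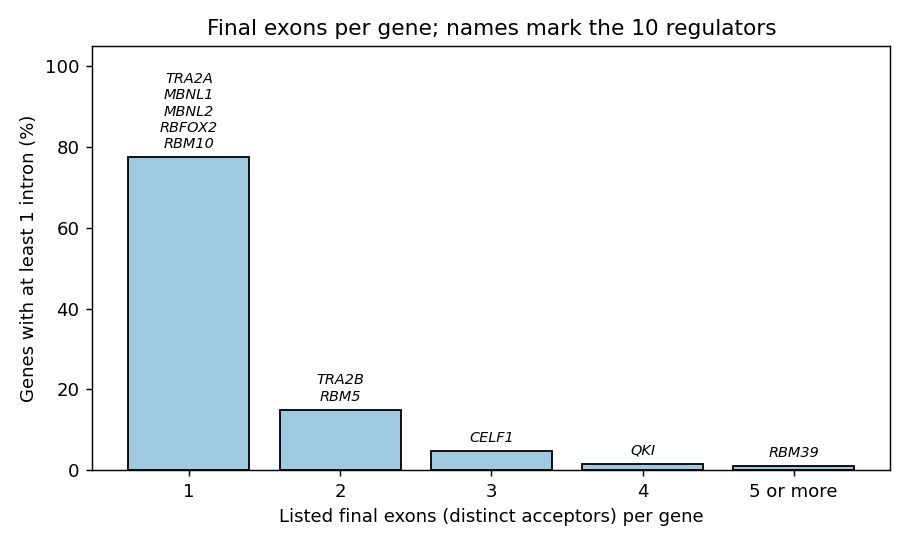
Share of the 12462 genes with at least 1 intron (vertical axis, percent) by the number of listed final exons with distinct acceptors (horizontal axis). Names above the bars place the 10 regulators: 5 lie in the first bar with 77.5% of genes, and QKI and RBM39 lie in the bars for 4 and for 5 or more, with 1.65% and 1.04% of genes.

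RBFOX2 (chromosome 22, 36134784 to 36424585, minus strand) was listed with 17 exons and 1 acceptor for its final exon, which was 266 bases long in 2 isoforms and 5513 bases long in 1. The reference final exon at this acceptor carries 42 or 52 coding bases. The exon counted as skipped is exon 14 of 40 bases, near the 3′ end of the coding sequence. It is the kind of short C-terminal exon by which RBFOX proteins differ between tissues, and its length is not a multiple of 3. It lies at chr22:36152152-36152191 on the minus strand and is shown as the exon of this gene among the 31. The 54-base exon 7 is also jumped in a basic transcript, by a junction of exon 6 to exon 9, but was not counted because the intron behind it was not matched.
RBFOX2 40-base exon: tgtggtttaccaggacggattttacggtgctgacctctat

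RBFOX2 and CELF1 had most alternative starts in the reference, with 4 first exons of basic protein-coding transcripts each. The RBFOX2 chain has the donors of 3 of them, at exon 1, exon 3 and exon 5. On the chain, exons 3 and 5 are internal exons of 21 and 225 bases. The 225-base exon is also internal in 7 of 8 basic protein-coding transcripts of the reference. Exon 4, 2365 bases long, and exon 8, 143 bases long, matched no reference exon. Over the 10 genes, 13 of 19 reference first exons had their donor on the chain, and in 5 cases the chain exon was internal (MBNL1 exon 2, RBFOX2 exons 3 and 5, CELF1 exon 7 and RBM39 exon 2). MBNL1 exon 2 (963 bases) and CELF1 exon 7 (188 bases) are, like RBFOX2 exon 5, also internal in basic protein-coding transcripts, in 4 of 14 and 4 of 7. Their internal place is thus not particular to the annotation. No internal exon of such transcripts has the length of RBFOX2 exon 3 or RBM39 exon 2.

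CELF1 (chromosome 11, 47491869 to 47574792, minus strand), whose protein binds GU-rich RNA in splicing and in mRNA turnover, had 5 isoforms and 3 final exons that all end at 47491869. The longest, 2041 bases, starts at the acceptor of exon 18 and runs on without splicing. The second, 1786 bases, was listed 3 times and follows an intron of 88 bases at 47493655 to 47493742. The third, 239 bases, follows an intron of 1635 bases at 47492108 to 47493742 from the same donor. Both introns are contained whole in the 2041-base final exon, and such a spanned intron was listed in 4.18% of genes and in 2 of the 10 regulators. In the reference the stop codon lies in exon 18 and the 1786-base final exon holds 0 coding bases, so these choices lie behind the stop codon. Exon 4 (72 bases, outside the coding sequence) and exon 11 (80 bases, coding) are counted as skipped in the reference. Exon 3 (40 bases) and exon 5 (152 bases) are jumped there too, in basic transcripts, but have an unmatched intron beside them and were not counted.

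RBM5 (chromosome 3, 50126342 to 50154812, plus strand) and RBM10 (chromosome X, 47004618 to 47046212, plus strand) are related RNA-binding proteins, and RBM10 is known to act on exons of its own transcript and of RBM5, which leads to decay. RBM5 had 2 isoforms. The shorter ends early, after 6 exons, with a final exon of 1663 bases at 50137965 to 50139627 that begins at the acceptor of the 74-base exon 6 and runs into the intron of 2477 bases behind it. The reference also has an early end, in a basic protein-coding transcript of 5 exons. Its final exon of 2213 bases begins at the acceptor of the 70-base exon 5, and 90 of its bases are coding. No listed isoform ends at that acceptor. The other listed isoform runs through 24 exons and stops at 50154812. This is the end of a 130-base exon that is fully coding and internal in the reference. The end that the reference gives RBM5 beyond this exon was not analysed here. The reference skips exons 6 (74 bases), 8 (61 bases) and 16 (85 bases) of RBM5, each by joining its neighbours, each outside the basic set, and none is a multiple of 3. RBM10 had 1 distinct isoform of 25 exons with a final exon of 340 bases. A single reference junction joins exon 8 to exon 14 and jumps exons 9 to 13 (61, 177, 158, 98 and 88 bases). Exon 5 of RBM10, 231 bases long, matched a coding reference exon. A basic reference transcript joins exon 3 to exon 6 and so skips it. It is not among the 31, because exon 4 of 148 bases before it matched nothing in the reference and the intron between them could not be matched.

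RBM39 (chromosome 20, 34288900 to 34330258, minus strand), a spliceosome-associated protein related to the U2AF large subunit, was the most divided of the 10 genes. It had 13 isoforms, 12 of them distinct, 5 final exons and 10 different 3′ ends. Of all genes 35.2% had 2 or more 3′ ends, as had 5 of the 10 regulators. Final exon 1 is 4221 bases long, begins at the acceptor of exon 6 after 5 exons, and spans an intron of 3886 bases at 34323004 to 34326889. Final exon 2 is 285 bases long, sits behind that intron and ends at the same position, 34322719. The reference has a final exon at this acceptor with 184 coding bases in protein-coding and 0 in decay transcripts. Final exons 3 and 4 are 775 and 772 bases long, begin 3 bases apart and end together at 34319283. Final exon 5 closes the full chain of 24 exons. It was listed with 8 lengths between 185 and 3604 bases, which fall into short ones of 185 and 255 bases, middle ones of 970, 971 and 972 bases and long ones of 3598, 3602 and 3604 bases. Lengths differ by 1 to 2 bases within the middle set and by 2 to 6 bases within the long set. The reference final exon carries 98 coding bases at this acceptor.

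**Figure D4:**
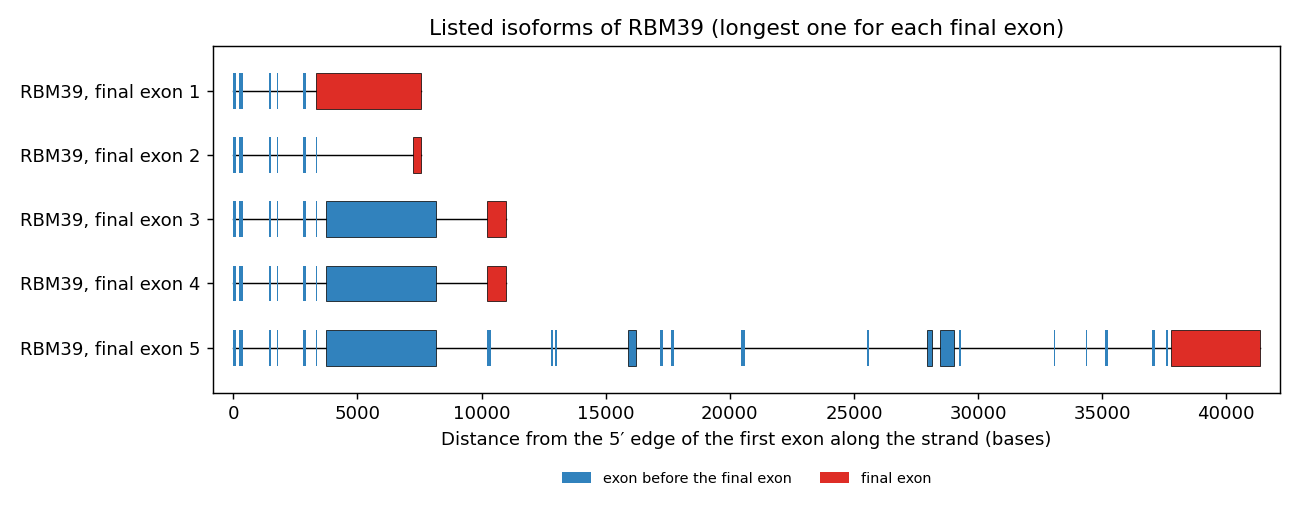
Listed isoforms of RBM39, the longest for each of its 5 final exons (rows), by distance in bases from the 5′ edge of the first exon along the strand; blue boxes are earlier exons, red boxes final exons and lines introns. All 5 share their early exons, 4 of them end early in the gene, and the 4221-base final exon 1 covers the intron in front of final exon 2.

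Early in RBM39 lie exons 4 and 5, which are coding in the reference only in decay transcripts, 8 of them for exon 4 and 1 for exon 5. Both are shown as read there because they carry a premature stop codon, given in capitals (exon 4 at chr20:34328447-34328519, exon 5 at chr20:34327315-34327469, minus strand). All 13 listed isoforms contain both exons, with exon 4 first. In the frame shown, reading of those isoforms ends at the stop of exon 4, so the stop of exon 5 would not be reached.
RBM39 exon 4, coding part and stop: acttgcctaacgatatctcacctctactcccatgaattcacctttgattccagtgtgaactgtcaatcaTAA
RBM39 exon 5, coding part and stop: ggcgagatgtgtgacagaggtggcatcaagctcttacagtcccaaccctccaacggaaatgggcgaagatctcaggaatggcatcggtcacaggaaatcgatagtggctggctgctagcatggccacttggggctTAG

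The stop follows 69 coding bases in exon 4 and 135 in exon 5. The chain keeps exons 4 and 5 in 1 line, whereas reference junctions join exon 3 to exon 5 or 6 and exon 4 to exon 6. The other skipped exons of RBM39 are exon 9 and exon 15 of 66 bases each, exon 17 of 564 bases and exon 20 of 53 bases. Exon 7 of RBM39, 4436 bases long, matched no single reference exon. Counted from its 3′ edge, it covers 8 reference exons and 2 whole introns. Exon 17 matched no single reference exon either and covers 4 exons and 1 intron. It is counted as skipped because both introns beside it matched.

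Of the 136 reference exons 15 were not on the chains, and 10 of them shared a splice site with a listed exon and differed at the other. For 5 the difference was 3 bases: TRA2A (68 bases listed and 65 in the reference), RBFOX2 (144 and 147), CELF1 (135 and 132, and 111 and 114) and RBM10 (158 and 161). The largest such difference was in QKI, where the listed 300-base exon 6 exceeds a reference exon of 276 bases by 24 bases at the acceptor. The 5 reference exons without a listed partner were those of 120, 58 and 64 bases in MBNL1, of 36 bases in MBNL2 and of 32 bases in RBFOX2. In all, 11 internal chain exons matched no reference exon, in MBNL1, MBNL2, RBFOX2, CELF1, RBM10 and RBM39.

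Some related genes had like exon lengths in a row, and so had some unrelated ones. With a tolerance of 3 bases, TRA2A and TRA2B shared a run of 4 internal exons (134, 166, 189 and 116 bases in TRA2A, and 134, 163, 189 and 116 bases in TRA2B), and RBM5 and RBM10 shared 4 (70, 74, 84 and 61 bases in RBM5, with 87 in place of 84 in RBM10). Only 2 runs of at least 4 exons had equal lengths throughout: CELF1 with CELF2 (83, 49, 135 and 80 bases) and RBM39 with RBM23 (118, 153, 138 and 66 bases). MBNL1 and MBNL2 shared 2 in a row, 54 and 154 bases. Genes of other families matched as well or better in places. With equal lengths TRA2A shared 3 exons with ATP8B2 (166, 189 and 116 bases) and 2 with TRA2B, and RBM10 shared 3 with LSG1 (87, 61 and 177 bases) and 2 with RBM5. With the tolerance MBNL2 shared 3 with ASIC1 and 2 with MBNL1. ATP8B2, LSG1 and ASIC1 were named after their values were seen.

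**Figure D5:**
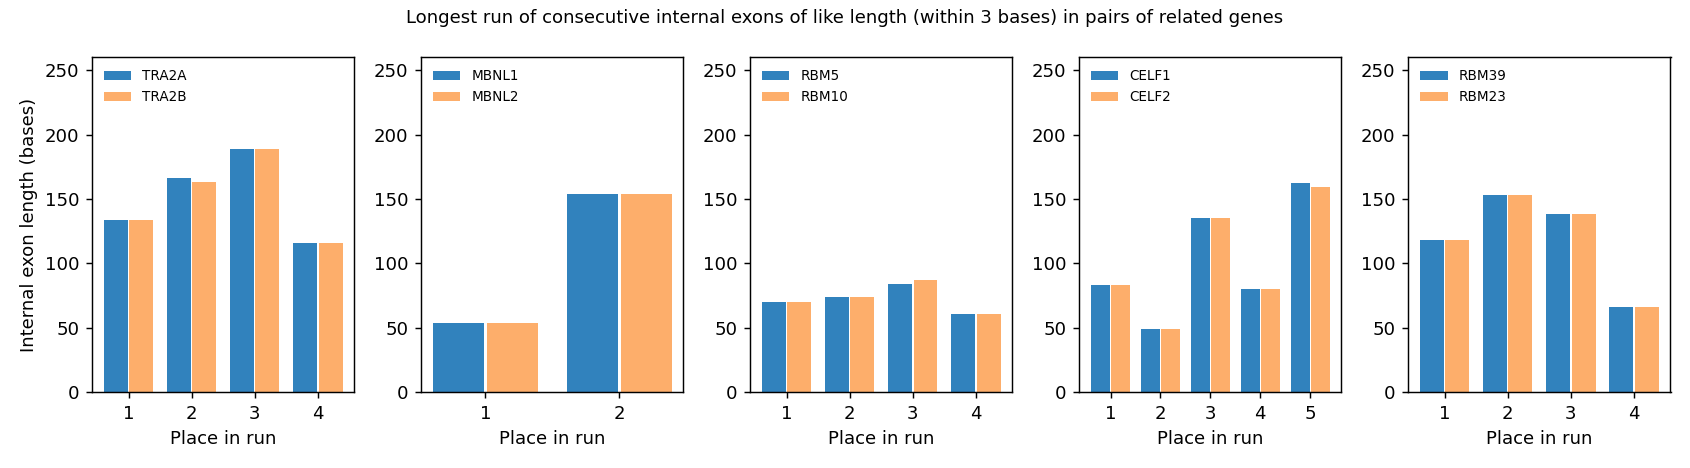
Lengths in bases (bars from 0) of the longest run of consecutive internal exons that differ by at most 3 bases, for 5 pairs of related genes, by place in the run. The 4 exons of RBM39 and RBM23 are equal throughout, and CELF1 and CELF2 differ at the fifth place, by 162 and 159 bases.

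Of 36 other splicing regulators looked for, 25 were listed. None of the 25 had a listed cassette exon or more than 1 first exon, 9 had 2 or more final exons, 1 had a spanned intron, and 17 of 24 compared had a chain exon that the reference skips. Among the paralogs, MBNL3 had 8 introns and 1 final exon, CELF2 12 introns and 1 final exon, CELF6 1 intron and 1 final exon, and RBM6 23 introns and 1 final exon. RBFOX3 had 5 introns, 2 final exons and 4 different 3′ ends. CELF3, CELF4, CELF5 and RBFOX1 were not among the names.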

How the data were processed

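Labels and 1 deposited exon annotation were used. The submitters' processing notes list RSEM, DESeq 1.10.1, bedtools 2.20.1, Bowtie 1.0.1 and STAR 2.4.1d, with hg19 and GRCh37, and no step for each. The deposited numbers, made by the authors, are the start and end positions of 382567 exon rows, with no level per library. The planned edgeR test was not run. The 10 genes and the lists were chosen with earlier results of these data known.

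A new isoform began with each new parent and wherever the 5′ to 3′ order started again. Of consecutive overlapping exons the later was kept. In 15% of isoforms, MBNL1 and RBM5 among them, the last row is repeated. GENCODE v29 (GRCh38), the source of all sequences, was compared by lengths only: a reference intron had to equal the listed distance, beside at least 1 exon of equal length. An exon counted as skipped where both its introns matched and a reference intron jumps it. Final exons were 1 base shorter than the reference on the minus strand in 52.5% of 4162 comparisons, against 1.21% of 3645 on the plus strand, so 3′ ends there may be 1 base off. Named genes were the 10, the paralogs of a list of regulators and genes with a run of at least 4 equal internal exons. ATP8B2, LSG1 and ASIC1 were named after their values were seen. Python 3.11.15, numpy 2.4.6, scipy 1.17.1 and matplotlib 3.10.9 were used. Methods were tested on simulated data. Wilson intervals cover counting error only.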

Additional observations from a re-analysis of the deposited data

How the results depend on the processing

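Totals of introns, cassette exons, first exons, final exons and matched reference exons over the 10 genes stayed within 1.5 times under the alternatives tried. Final exons numbered 21 by acceptor, 25 by 3′ edge and 15 without those that share the acceptor of an internal exon. Per gene they moved more: by 3′ edge TRA2B had 4 against 2, QKI 2 against 4, RBFOX2 2 against 1, CELF1 1 against 3 and RBM39 10 against 5. Without shared acceptors TRA2B and RBM5 had 1 each and RBM39 had 3. Alternative splice sites numbered 0 between internal exons and 46 with first and final exons included, since shared-edge final exons then count. Skipped chain exons numbered 18 when only basic reference transcripts were used and 23 when the reference had to join the 2 neighbouring exons (RBM10 0 in place of 5), against 31. Regulators with a run of at least 4 like exons in another gene numbered 6 with a tolerance of 3 bases (TRA2A, TRA2B, CELF1, RBM5, RBM10 and RBM39), against 2 without (CELF1 and RBM39).

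The shares over all genes moved with the genes counted. Those for 2 or more first exons again come from isoforms of a single exon. In genes with at least 2 isoforms they were 0.403% for 2 or more first exons, 32.3% for 2 or more final exons, 10.8% for 3 or more, 1.49% for 5 or more, 50.6% for 2 or more 3′ ends, 6.01% for spanned introns and 60.7% for a chain exon skipped in the reference. In genes with 9 to 25 introns they were, in the same order, 0.168%, 29.6%, 11.1%, 1.57%, 43.6%, 6.06% and 69.6%, and 6.65% for an exon coding only in decay transcripts and skipped in others.

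No paired analysis was possible because no value is given per library. Leaving out a replicate, the replicate block and the expression test were not run for the same reason. A length match can be coincidence, and an exon with an unmatched intron beside it cannot be counted as skipped. RBM39 exon 17 matched no reference exon but was counted, because both its introns matched. The reference is of another build than the file.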
